A study of Mus musculus with 6 samples.

Results

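The genes described here encode the AP-1 transcription factor subunits Fos, Fosb, Fosl1, Fosl2, Jun, Junb and Jund and the immediate early proteins Egr1, Egr2 and Ier2. They were given as a list of 10 genes, and every probe set annotated to them was taken: 15 probe sets of the 45037 on the arrays after control probe sets were set aside, for 10 of the 18193 genes with a probe set of their own. The arrays, Affymetrix chips, hold RNA of whole lenses from Balb/c mice aged 2 days: 3 arrays from mice with a transgene and 3 from wild-type mice. Neither the transgene nor its promoter nor a founder line is named in the labels, and the design text gives 12 lenses per genotype with no word on how these were pooled. Separate animals per replicate are not stated, so every p-value reflects the spread among 6 samples alone, and that spread may be technical. Transgenic replicates are called T1 to T3 and wild-type replicates W1 to W3.

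AP-1 is a dimer. Jun proteins pair with each other or with Fos proteins through a leucine zipper and bind DNA next to it, whereas Fos proteins need a Jun partner. Fos, Fosb, Jun, Egr1, Egr2 and Ier2 are immediate early genes: growth factors and stress raise their transcripts within minutes, without new protein synthesis, through ERK and JNK kinases that act on serum response factor with its Elk partners, on CREB and on Jun itself. In the lens, ERK signalling below the FGF receptors drives epithelial cells into fiber differentiation. The question put to these genes is whether their transcript levels in the newborn lens differ with the transgene.

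Promoters of 4 of the genes, Fos, Fosb, Jun and Egr2, are shown because they hold the response elements by which this class of gene is known. The choice ties no response element to an array pattern. Fosl1 and Jund, like Fos, Fosb and Jun, had every transgenic array above every wild-type array but are not shown. Fosl1 had no window, and the Jund window had no match to the motifs searched. Egr2 overlapped between groups. Each run is the RefSeq sequence of GRCm38.p6 from 250 bases before to 50 bases after an annotated start, 5′ to 3′ on the strand of the gene. Fos lies at chr12:85473640-85473939, plus strand, Fosb at chr7:19309996-19310295, minus strand, Jun at chr4:95052173-95052472, minus strand, and the Egr2 window shown, the third of 5 that RefSeq gives for this gene, at chr10:67537619-67537918, plus strand. Capitals mark every match on either strand to the motifs searched: the cyclic AMP response element half-site TGACG, the octamer TGACNTCA, the AP-1 site TGANTCA, the CArG box bound by serum response factor, the Egr site GCGNGGGCG, the TATA box TATAAA and the forkhead core TGTTTA.
Fos: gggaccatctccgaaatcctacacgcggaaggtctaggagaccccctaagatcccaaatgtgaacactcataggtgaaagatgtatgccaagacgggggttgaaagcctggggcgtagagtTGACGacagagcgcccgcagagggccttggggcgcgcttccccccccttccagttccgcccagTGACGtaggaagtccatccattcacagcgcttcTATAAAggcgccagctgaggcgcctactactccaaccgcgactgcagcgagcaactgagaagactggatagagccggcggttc
Fosb: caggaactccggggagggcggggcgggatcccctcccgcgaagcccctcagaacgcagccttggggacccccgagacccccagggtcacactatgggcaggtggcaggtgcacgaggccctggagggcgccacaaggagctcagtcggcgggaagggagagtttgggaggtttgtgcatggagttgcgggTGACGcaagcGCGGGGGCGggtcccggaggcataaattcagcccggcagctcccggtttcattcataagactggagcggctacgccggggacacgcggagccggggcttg
Jun: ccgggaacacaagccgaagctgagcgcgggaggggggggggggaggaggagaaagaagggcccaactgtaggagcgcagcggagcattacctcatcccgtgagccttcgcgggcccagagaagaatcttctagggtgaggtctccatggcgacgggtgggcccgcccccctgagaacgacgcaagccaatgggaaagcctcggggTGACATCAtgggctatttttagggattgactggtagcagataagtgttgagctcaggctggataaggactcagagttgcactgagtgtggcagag
Egr2: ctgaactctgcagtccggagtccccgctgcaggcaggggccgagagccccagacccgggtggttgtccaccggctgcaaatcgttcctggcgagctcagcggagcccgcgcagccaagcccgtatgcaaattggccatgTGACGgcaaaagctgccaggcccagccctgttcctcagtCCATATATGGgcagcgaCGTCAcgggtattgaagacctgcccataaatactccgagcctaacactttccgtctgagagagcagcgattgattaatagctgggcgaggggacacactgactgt

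The Fos window held half-sites whose first bases lay at positions -129 and -66 from the annotated start and a TATA box at -33. Fosb had a half-site at -60 and an Egr site at -50, and Jun had the octamer at -45, the variant through which Jun protein is known to act on its own gene. The Egr2 window held a CArG box at -72, with half-sites at -111 on the gene's strand and at -55 on the opposite strand. Among 32851 promoter windows of the same length, 20.8% held the half-site, 8.83% the octamer, 7.81% the AP-1 site, 1.63% the CArG box, 5.55% the Egr site, 13.6% the TATA box and 13.4% the forkhead core. For the 10 genes, windows of 7 were searched, 11 in all, and none was searched for Fosl1, Egr1 or Ier2. The AP-1 site was in none of these windows, and the forkhead core was in the Junb window alone. The Jund window and the first of the 5 Egr2 windows held no match to any motif searched. A motif absent here may lie outside the window. The octamer overlaps the half-site when its variable base is G. These matches describe letters in these windows and are not evidence of binding.

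No gene of the group passed the test at gene level. Each gene was represented by its brightest probe set, and limma's empirical Bayes test was adjusted over all 18193 genes, with a threshold of 0.05 on the adjusted p. Of all genes, 1.93% were called higher and 2.61% lower in transgenic lenses, 4.55% in all, so 0 calls among 10 genes lies near that background. At an unadjusted limma p under 0.05, 5 of the 10 were higher and 0 were lower, where 11.5% of all genes were higher and 10.9% lower. The 5 became 3 on the values as deposited, after shifting to a common median, and without T1, T3 or W1, 2 without W2 or W3, and 1 without moderation of variances. In the 5 genes of the full comparison, Fos, Fosb, Fosl1, Jun and Jund, every transgenic array lay above every wild-type array. Over all genes this held for 15.3%, and the opposite order, seen in 0 of the 10, held for 13.5%, so that 28.8% did not overlap in either order. The median log2 difference, transgenic minus wild-type, was 0.29 for the 10 genes and 0.011 for all genes. Of the 10 differences 9 were above 0.

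**Figure D1:**
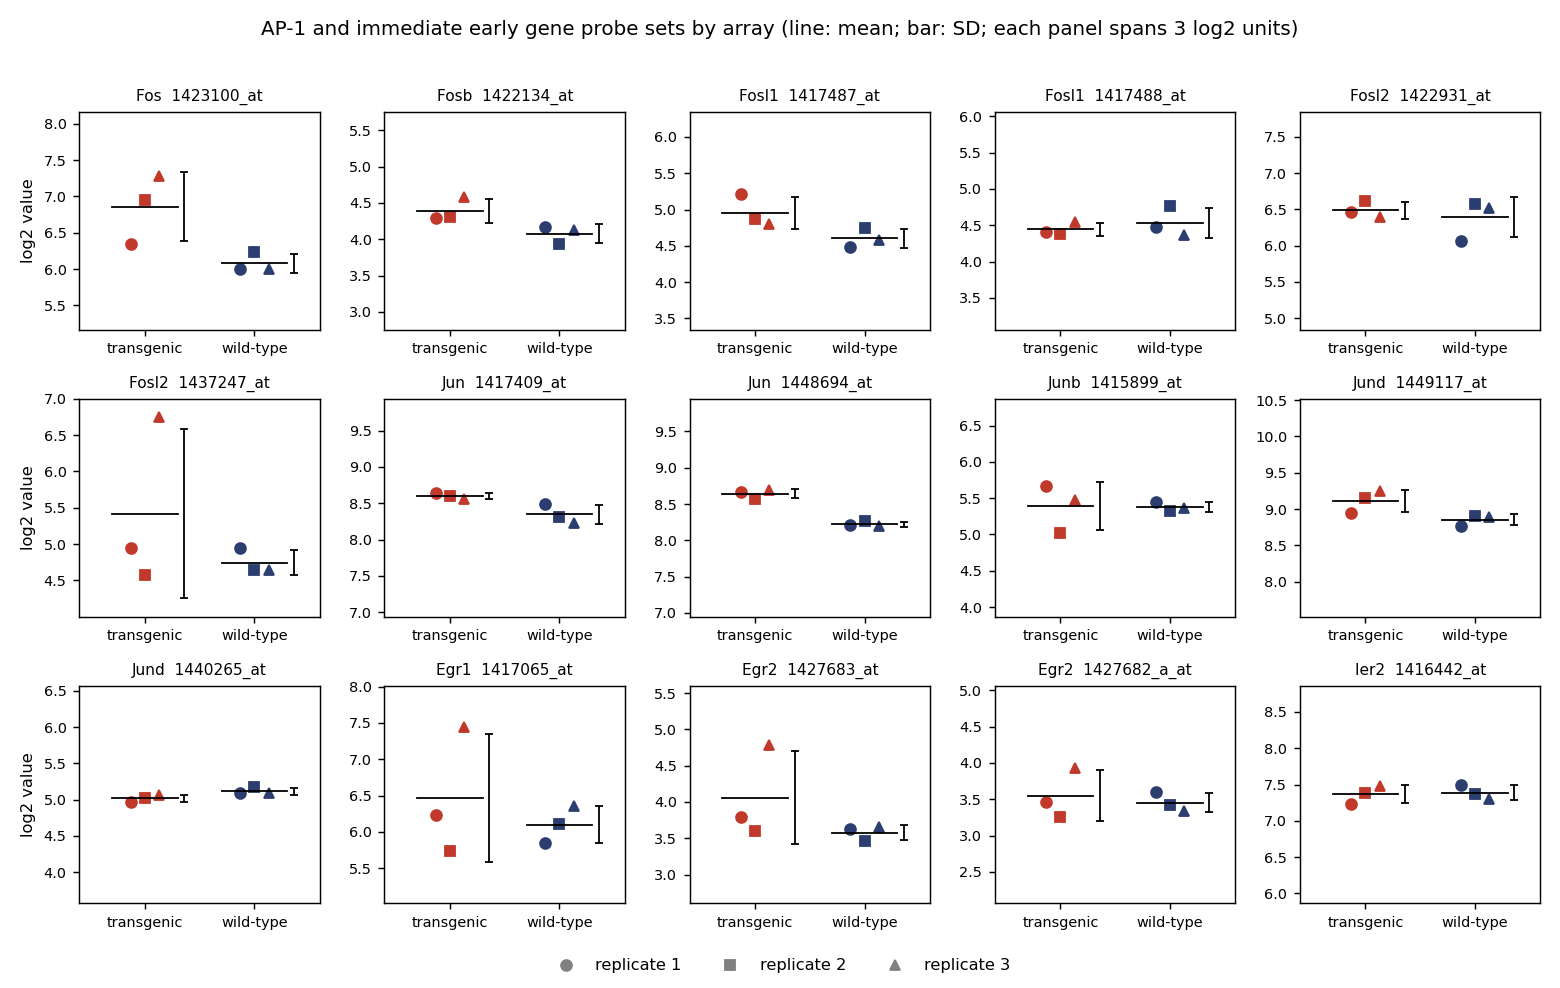
Log2 values of the 15 probe sets by array, transgenic arrays at the left and wild-type arrays at the right of each panel, with the mean as a line, the SD as a bar and a vertical axis of equal span in every panel. Fos, Fosb, 1 of 2 Fosl1, both Jun and the brighter Jund probe sets, 6 of 15, show no overlap with transgenic arrays on top. Over all probe sets this held for 13.6%, and the dimmer Jund probe set shows no overlap in the opposite order. T3 stands alone at the top for Egr1, Egr2 and the dimmer Fosl2 probe set.

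Fos, which encodes the founding partner of Jun, had the largest difference and the smallest p of the 10 genes. Its log2 values were 6.34 in T1, 6.96 in T2 and 7.28 in T3, against 6.01 in W1, 6.23 in W2 and 5.99 in W3. The transgenic arrays spanned most of a log2 unit and T1 lay just above W2, while the wild-type arrays lay close together. Fos averaged 6.86 ± 0.47 in transgenic and 6.08 ± 0.14 in wild-type lenses (SD, n = 3 each), a 1.72-fold difference. The log2 difference was 0.78 ± 0.22 (SE), with a 95% confidence interval from 0.28 to 1.28 and a limma adjusted p = 0.0887. Without T1 it was 1.04 and passed (adjusted p = 0.0207), and without T3 it was 0.57 (adjusted p = 0.126). With any other array left out the adjusted p ran up to 0.221.

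Fosb, a close relative of Fos that is induced with it in the nervous system, stayed under 5.34, the median level of the probe sets, on all 6 arrays. Its log2 values were 4.29, 4.30 and 4.58 in T1 to T3, against 4.17, 3.93 and 4.13 in W1 to W3. The lowest transgenic array stood 0.12 or more above each wild-type array. The log2 difference of 0.32 ± 0.11 (SE) had an interval from 0.052 to 0.58 and did not pass (limma adjusted p = 0.156).

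Fosl1 encodes Fra-1, which lacks the transactivation domain of Fos. Its brighter probe set read 5.21, 4.87 and 4.80 in T1 to T3, against 4.48, 4.75 and 4.58 in W1 to W3, also under the median level. The gap between the groups was small, since T3 and W2 nearly met. The log2 difference was 0.36 ± 0.13 (SE), with an interval from 0.056 to 0.66 (limma adjusted p = 0.160). The second probe set overlapped between groups, with 4.40, 4.39 and 4.55 in T1 to T3, against 4.48, 4.77 and 4.36 in W1 to W3. Its difference of -0.089 had the other sign, so the probe sets of Fosl1 disagree, and their average differed by 0.13 (limma adjusted p = 0.482).

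Fosl2 encodes Fra-2, the other Fra protein. The brighter probe set overlapped between groups, at 6.46, 6.61 and 6.39 in T1 to T3, against 6.07, 6.58 and 6.52 in W1 to W3. The log2 difference of 0.096 had an interval from -0.24 to 0.43 (limma adjusted p = 0.733). The dimmer probe set was set apart by 1 array: T3 read 6.74, while T1 and T2 read 4.95 and 4.57, against 4.95, 4.64 and 4.64 in W1 to W3. T3 exceeded the mean of T1 and T2 by 1.99 log2 units on this probe set and was 0.15 below it on the brighter one. With every probe set fitted on its own, the dimmer one differed by 0.68 ± 0.47 (SE; limma adjusted p = 0.451), and by 0.014 without T3.

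Jun encodes the subunit that can form AP-1 on its own. Both of its probe sets were well above the median level and neither overlapped between groups. The brightest read 8.65, 8.60 and 8.56 in T1 to T3, against 8.49, 8.32 and 8.23 in W1 to W3. The second read 8.66, 8.57 and 8.69 in T1 to T3, against 8.21, 8.26 and 8.20 in W1 to W3. The groups lay further apart on the second probe set, and its replicates were tighter. At gene level, on the brightest probe set, Jun differed by 0.26 ± 0.094 (SE), with an interval from 0.039 to 0.47 (limma adjusted p = 0.162). As deposited it differed by 0.18 (adjusted p = 0.371), and after shifting to a common median by 0.15 (adjusted p = 0.504).

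When each of the 45037 probe sets was fitted on its own, 1.47% were called higher and 2.21% lower, 3.68% in all, and 1 of the 15 probe sets was called higher and 0 lower. The call was the second Jun probe set, which rose by 0.42 ± 0.083 (SE), a 1.34-fold difference with an interval from 0.23 to 0.61 (limma adjusted p = 0.0328). In that fit the other Jun probe set had an adjusted p = 0.174. The call was lost on the values as deposited (adjusted p = 0.0704), after the arrays were shifted to a common median (0.101), and whichever array was left out (0.0656 to 0.110). The difference kept its sign, between 0.31 and 0.45. When both Jun probe sets were averaged instead of taking the brightest, the gene passed, with a difference of 0.34 (adjusted p = 0.0440).

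Jund, the Jun family gene with the most even expression across tissues, read 8.95, 9.15 and 9.25 in T1 to T3, against 8.77, 8.91 and 8.89 in W1 to W3 on its brighter probe set. The groups did not overlap, by a margin of 0.041 between T1 and W2. The log2 difference of 0.26 ± 0.10 (SE) had an interval from 0.023 to 0.50 and did not pass (limma adjusted p = 0.188). A dimmer probe set, under the median level, had the reverse order, with 4.97, 5.02 and 5.06 in T1 to T3, against 5.09, 5.17 and 5.09 in W1 to W3. Its difference was -0.10 ± 0.082 (SE; limma adjusted p = 0.523), so the probe sets of Jund disagree in sign. At gene level Jund differed by 0.15 after shifting to a common median and by 0.080 with both probe sets averaged (limma adjusted p = 0.399 and 0.588).

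Junb, whose product is a weaker activator than Jun and can oppose it, read 5.67, 5.02 and 5.48 in T1 to T3, against 5.45, 5.32 and 5.36 in W1 to W3. T1 was the highest and T2 the lowest of the 6 arrays. The log2 difference of 0.0081 had an interval from -0.36 to 0.37, which leaves room for a change of the size seen in Jun.

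**Figure D2:**
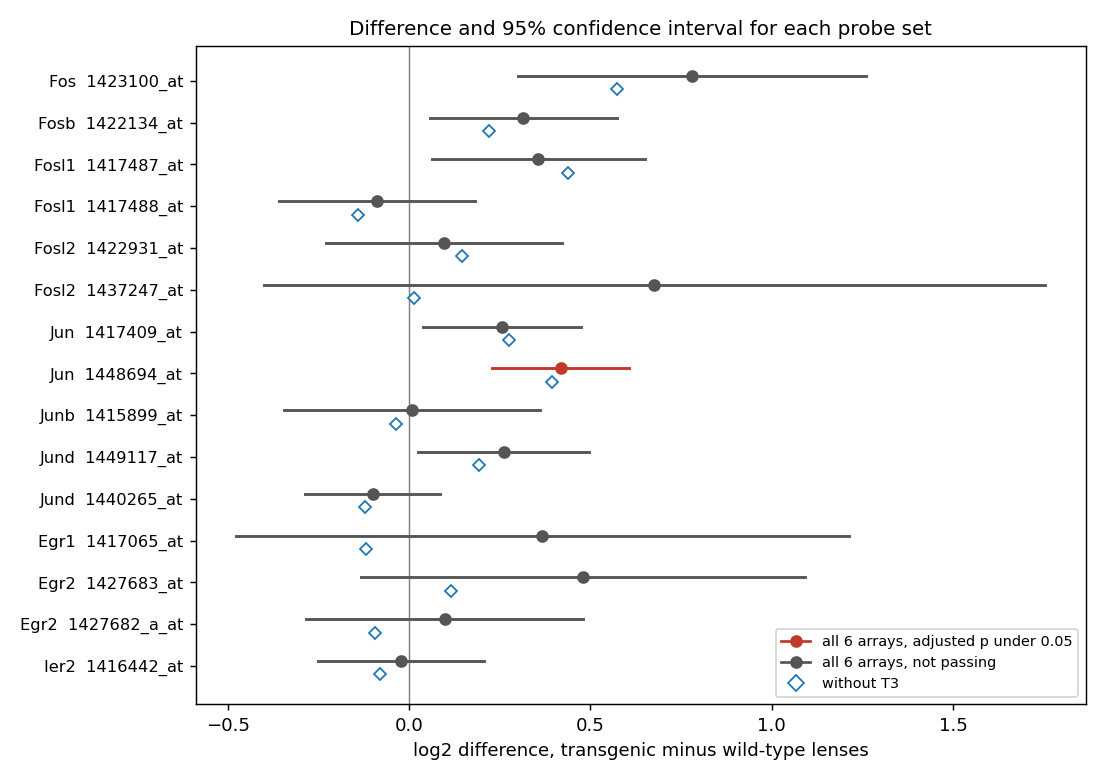
Log2 difference, transgenic minus wild-type, of each of the 15 probe sets with its 95% confidence interval over all 6 arrays (filled circles) and the difference without T3 (open diamonds). The second Jun probe set passed at 0.42, and the values of Egr1, Egr2 and the dimmer Fosl2 probe set moved toward or across 0 without T3.

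The Egr genes encode zinc finger factors. Egr1 links growth factor signals to slower gene programmes, and Egr2, also called Krox20, is known for hindbrain patterning and Schwann cell myelination. Egr1 read 6.23, 5.73 and 7.44 in T1 to T3, against 5.84, 6.11 and 6.35 in W1 to W3. T3 was the highest and T2 the lowest of all arrays, so the groups overlapped. Egr1 averaged 6.47 ± 0.88 in transgenic and 6.10 ± 0.25 in wild-type lenses (SD, n = 3 each). The log2 difference of 0.37 had an interval from -0.52 to 1.26 (limma adjusted p = 0.612), and without T3 it was -0.12 (adjusted p = 0.765).

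Egr2 showed the same array on top at a much dimmer level. The brighter probe set read 3.79, 3.60 and 4.79 in T1 to T3, against 3.63, 3.46 and 3.65 in W1 to W3. Apart from T3 the arrays lay within 0.33 of each other and far below the median level. The log2 difference of 0.48 had an interval from -0.16 to 1.12 (limma adjusted p = 0.352), and without T3 it was 0.12 (adjusted p = 0.617). The dimmer probe set read 3.46, 3.25 and 3.93 in T1 to T3, against 3.59, 3.43 and 3.33 in W1 to W3. Its difference was 0.098, and -0.094 without T3.

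Ier2, which encodes a small nuclear protein induced early by growth factors, read 7.23, 7.39 and 7.48 in T1 to T3, against 7.50, 7.37 and 7.30 in W1 to W3. The ranges of the groups nearly coincided. The difference of -0.023 had an interval from -0.25 to 0.21 (limma adjusted p = 0.915).

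The replicates differed more for some of these genes than for most genes. The SD within groups, pooled over both genotypes, was 0.65 for Egr1, 0.46 for Egr2 and 0.35 for Fos, against a median of 0.13 over all genes. Among all genes these SDs stood at percentiles 99.0, 98.0 and 96.3. Among wild-type arrays alone the SD of Fos stood at percentile 57.1, that of Egr2 at 42.6 and that of Egr1 at 89.9. For Jun the pooled SD of 0.098 stood at percentile 28.5.

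Markers of the lens and of other cell types were read on the same arrays. All 16 lens markers measured, 7 of fiber cells and 9 of the epithelium, had mean values at or above the median level. Among them 1 of 9 epithelial markers rose, Foxe3, a forkhead factor gene, by 4.64 (limma adjusted p = 2.07e-06), and 1 of 7 fiber markers fell, the beaded filament gene Bfsp1, which fell by 1.66 (limma adjusted p = 0.000406). The median differences were 0.11 for the epithelial and -0.16 for the fiber list. The fiber median is that of Lim2, which read 13.90 on every wild-type array after quantile normalization. Crybb1 read 14.59 on every array, and Crygs and Cryab were each tied among wild-type arrays. A change in these bright markers may not show. Of 17 neural retina markers 1 was above 0 and 2 fell, Sncg and Elavl4, with differences of -0.84 and -0.72 (limma adjusted p = 0.0331 and 0.0117). The summed level of the retina list on the linear scale ran from 2512 to 3916 in transgenic and from 3466 to 4743 in wild-type arrays. The median of that list was -0.28, and -0.31 without T3, and its part in the AP-1 values was not tested. T3 stood apart in markers of other tissues. Of 16 skin and keratinocyte markers 15 were highest in T3, as were 10 of 10 skeletal muscle markers and 6 of 8 fibroblast markers. The summed skin level on the linear scale ran from 2292 to 32950 in transgenic and from 2154 to 3336 in wild-type arrays. For fibroblast markers it ran from 1276 to 13480 in transgenic and from 1148 to 1466 in wild-type arrays, and for muscle markers from 425 to 8553 in transgenic and from 442 to 641 in wild-type arrays. The high end was T3 for all 3 lists, and no marker was listed at 0. As a list, pigment epithelium markers stood highest in T2, with a median deviation of 0.77 from their means. Of these 9 markers 8 were above 0 and 1 fell, Mitf, with a difference of -0.56 (limma adjusted p = 0.0243). Of 10 vessel and pericyte markers 4 were above 0 and 1 rose, Tek, by 0.49 (limma adjusted p = 0.0465). Without T3 the median differences of the skin, fibroblast and muscle lists were -0.17, 0.068 and -0.28.

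T3 was the highest of the 6 arrays for Fos, Fosb, Jund, Egr1 and Egr2, 5 of the 10 genes, and for 17.5% of all genes. Relative to the mean of T1 and T2 it was higher by 1.46 for Egr1, 1.09 for Egr2, 0.63 for Fos and 0.28 for Fosb. It was also higher by 0.20 for Jund, 0.17 for Ier2 and 0.13 for Junb. On the brightest probe sets it was lower for Fosl1, with -0.24, Fosl2, with -0.15, and Jun, with -0.060. Whether RNA of other tissues contributed to the T3 values of these genes was not tested. Without T3 the median difference of the 10 genes was 0.17, against 0.011 over all genes, and 7 of 10 were above 0. Among the genes without overlap, the difference without T3 was 0.22 for Fosb, 0.44 for Fosl1, 0.28 for Jun and 0.19 for Jund. T1 and T2 both lay above all wild-type arrays for the same 5 genes, where this held for 21.2% of all genes. These 5 already had every transgenic array on top, so leaving out T3 could not lower the count. It is therefore no check on T3. In whole lenses, a change in the number of cells of a type and a change in RNA per cell cannot be told apart.

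**Figure D3:**
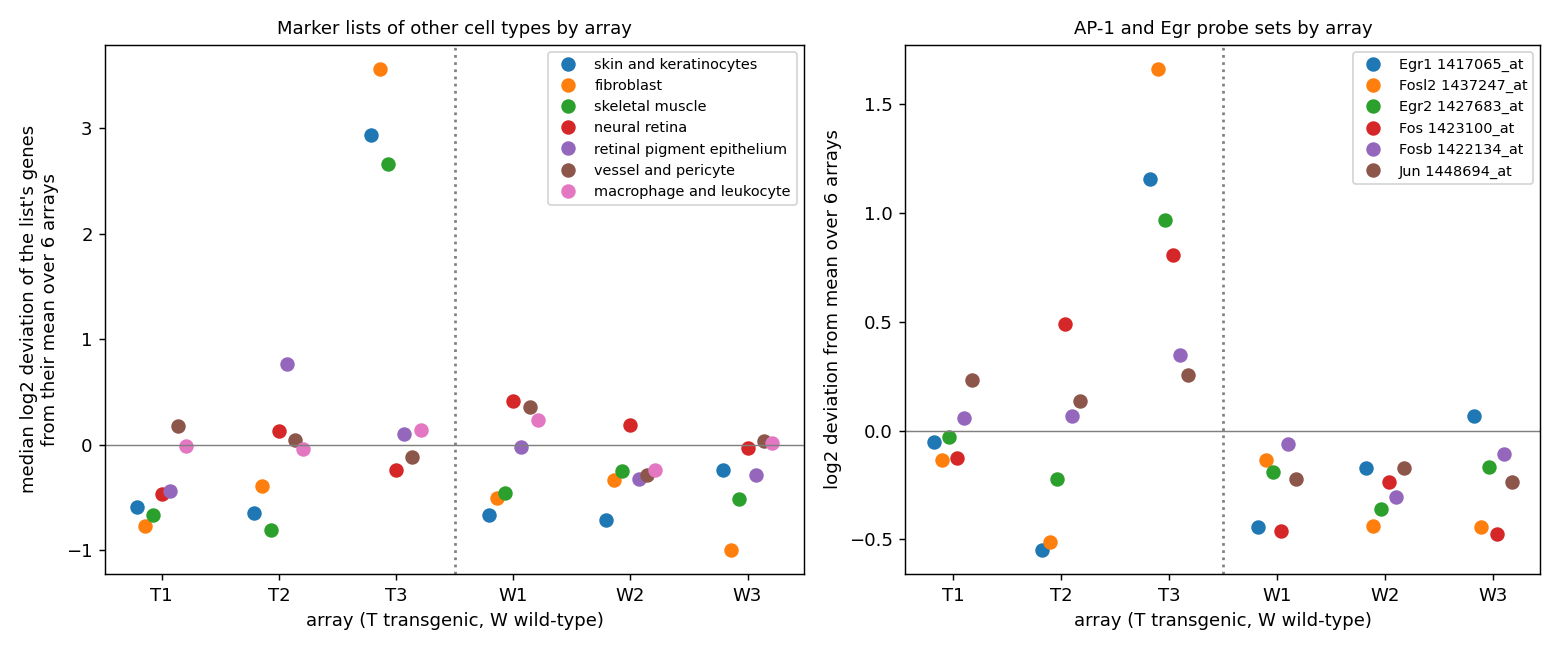
At the left, the median log2 deviation of 7 marker lists from each gene's mean over the 6 arrays; at the right, the same deviation for 6 AP-1 and Egr probe sets. T3 reaches 2.94 for skin, 3.56 for fibroblast and 2.66 for muscle markers and is the top array for Egr1, Egr2, Fos, Fosb and the dimmer Fosl2 probe set, while the second Jun probe set is at a like height in T1, T2 and T3.

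Fos has the smallest p of the 10, and its profile over the 6 arrays was set against the 12089 other genes whose mean reached the median level. Likeness was measured by the root mean square difference between the values of 2 genes, each minus its own mean. The nearest were Dpep1, encoding a membrane dipeptidase, at 0.136, Des, encoding the muscle filament protein desmin, at 0.137, and Acta2, encoding smooth muscle actin, at 0.150. Sh3pxd2b, encoding an adaptor protein of podosomes, followed at 0.173, and Hhip, encoding a hedgehog-binding protein, at 0.174. Dpep1, Acta2, Sh3pxd2b and Hhip rose, by 0.91, 0.97, 0.67 and 0.85 (limma adjusted p = 0.0315, 0.0148, 0.0267 and 0.0254). These genes were chosen by their likeness to Fos on the same 6 arrays, so the direction and size of their differences follow from the choice. Des read 6.53, 6.88 and 7.47 in T1 to T3, against 5.98, 6.23 and 6.29 in W1 to W3 and, like Fos, did not pass (difference 0.80; limma adjusted p = 0.0883). Of the other 9 genes of the group, Jund, at 0.325, came nearest to Fos and Junb, at 0.566, was the farthest.

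The wider AP-1 and immediate early pathway was described by 4 gene lists, whose counts stand against 1.93% of all genes called higher and 2.61% called lower. Among 14 measured genes for other AP-1 subunits and dimer partners, 1 rose and 0 fell. Atf3, which encodes a stress-induced factor that pairs with Jun proteins, read 5.73, 5.66 and 5.76 in T1 to T3, against 4.59, 4.65 and 4.57 in W1 to W3. The groups lay far apart, with the wild-type values under the median level. Atf3 rose by 1.11 ± 0.079 (SE), a 2.16-fold difference (limma adjusted p = 0.000550). Mafk, a small Maf protein gene, differed by 0.39 and Batf3, encoding an AP-1 factor of dendritic cells, by -0.48, without passing (limma adjusted p = 0.0761 and 0.0917). The median difference of the list was -0.067, against 0.011 over all genes.

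Of 47 other immediate early genes measured, 2 rose and 5 fell, and 40 did not pass. The risers were Ccn2, encoding a matricellular growth factor, by 1.29 ± 0.094 (SE; limma adjusted p = 0.000563), and Plk3, encoding a stress-responsive kinase, by 0.63 ± 0.079 (limma adjusted p = 0.00639). The largest falls were in growth arrest genes. Gadd45b read 8.59, 8.39 and 8.29 in T1 to T3, against 10.42, 10.59 and 10.68 in W1 to W3, and Gadd45g read 8.22, 8.08 and 8.24 in T1 to T3, against 9.66, 9.85 and 10.13 in W1 to W3. The groups lay far apart for both genes, and the wild-type values of Gadd45g were the most spread, with differences of -2.14 and -1.70 (limma adjusted p = 0.000100 and 0.000631).

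Zfp36, whose product speeds the decay of immediate early and cytokine transcripts, read 6.82, 6.86 and 7.30 in T1 to T3, against 7.70, 7.73 and 7.99 in W1 to W3. It fell by 0.81 ± 0.15 (SE; limma adjusted p = 0.0269). Ier5l fell by 0.78 (limma adjusted p = 0.0389), and a dimmer probe set of it differed by -0.099. Ier5, its relative, fell by 0.49 (limma adjusted p = 0.0439), and its other probe sets differed by -0.51 and -0.46. Nfkbia and Nfkbiz, both named for the NF-kappaB inhibitor family, differed by 0.37 and 0.41 without passing (limma adjusted p = 0.0926 and 0.0993). The median of the list was 0.084. The calls of Ccn2, Plk3, Gadd45b and Gadd45g held with any 1 array left out. Ier5 lost its call without T1, T2, W1, W2 or W3 (adjusted p up to 0.144), Ier5l without T1, T2, T3, W2 or W3 (up to 0.129), and Zfp36 without T1, T2, W1, W2 or W3 (up to 0.104).

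Among 25 measured genes for kinases and factors that act on immediate early promoters, 1 rose and 0 fell. Map2k1, which encodes the ERK kinase MEK1, read 9.22, 9.15 and 9.20 in T1 to T3, against 8.84, 8.79 and 8.84 in W1 to W3, and rose by 0.37 ± 0.076 (SE; limma adjusted p = 0.0396). The call was lost whichever array was left out (adjusted p from 0.0663 to 0.141), on the values as deposited (0.0954) and after shifting to a common median (0.151). Mapk8ip1, encoding a JNK scaffold, differed by 0.27 and Map2k4, encoding a kinase that activates JNK, by 0.23, neither passing (limma adjusted p = 0.151 and 0.158).

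Of 30 measured genes known elsewhere as AP-1 targets, 0 rose and 1 fell. Hmox1, the heme oxygenase gene, read 9.53, 9.59 and 9.35 in T1 to T3, against 11.55, 11.79 and 11.86 in W1 to W3, and fell by 2.24 ± 0.11 (SE; limma adjusted p = 8.11e-05). Vegfa, encoding an angiogenic growth factor, differed by 0.47 and Cdkn1a, encoding the cell cycle inhibitor p21, by 0.90 (limma adjusted p = 0.143 and 0.152). Cdkn1a read 7.01, 7.11 and 8.35 in T1 to T3, against 6.46, 6.65 and 6.65 in W1 to W3, so T3 was again the top array. The metallothionein gene Mt1 passed without T3, with a difference of 0.61 (adjusted p = 0.0490), and the connexin gene Gja1 passed without W1, with 0.77 (adjusted p = 0.0408). Both are outside the rule for named genes and were chosen after their values were seen.

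**Figure D4:**
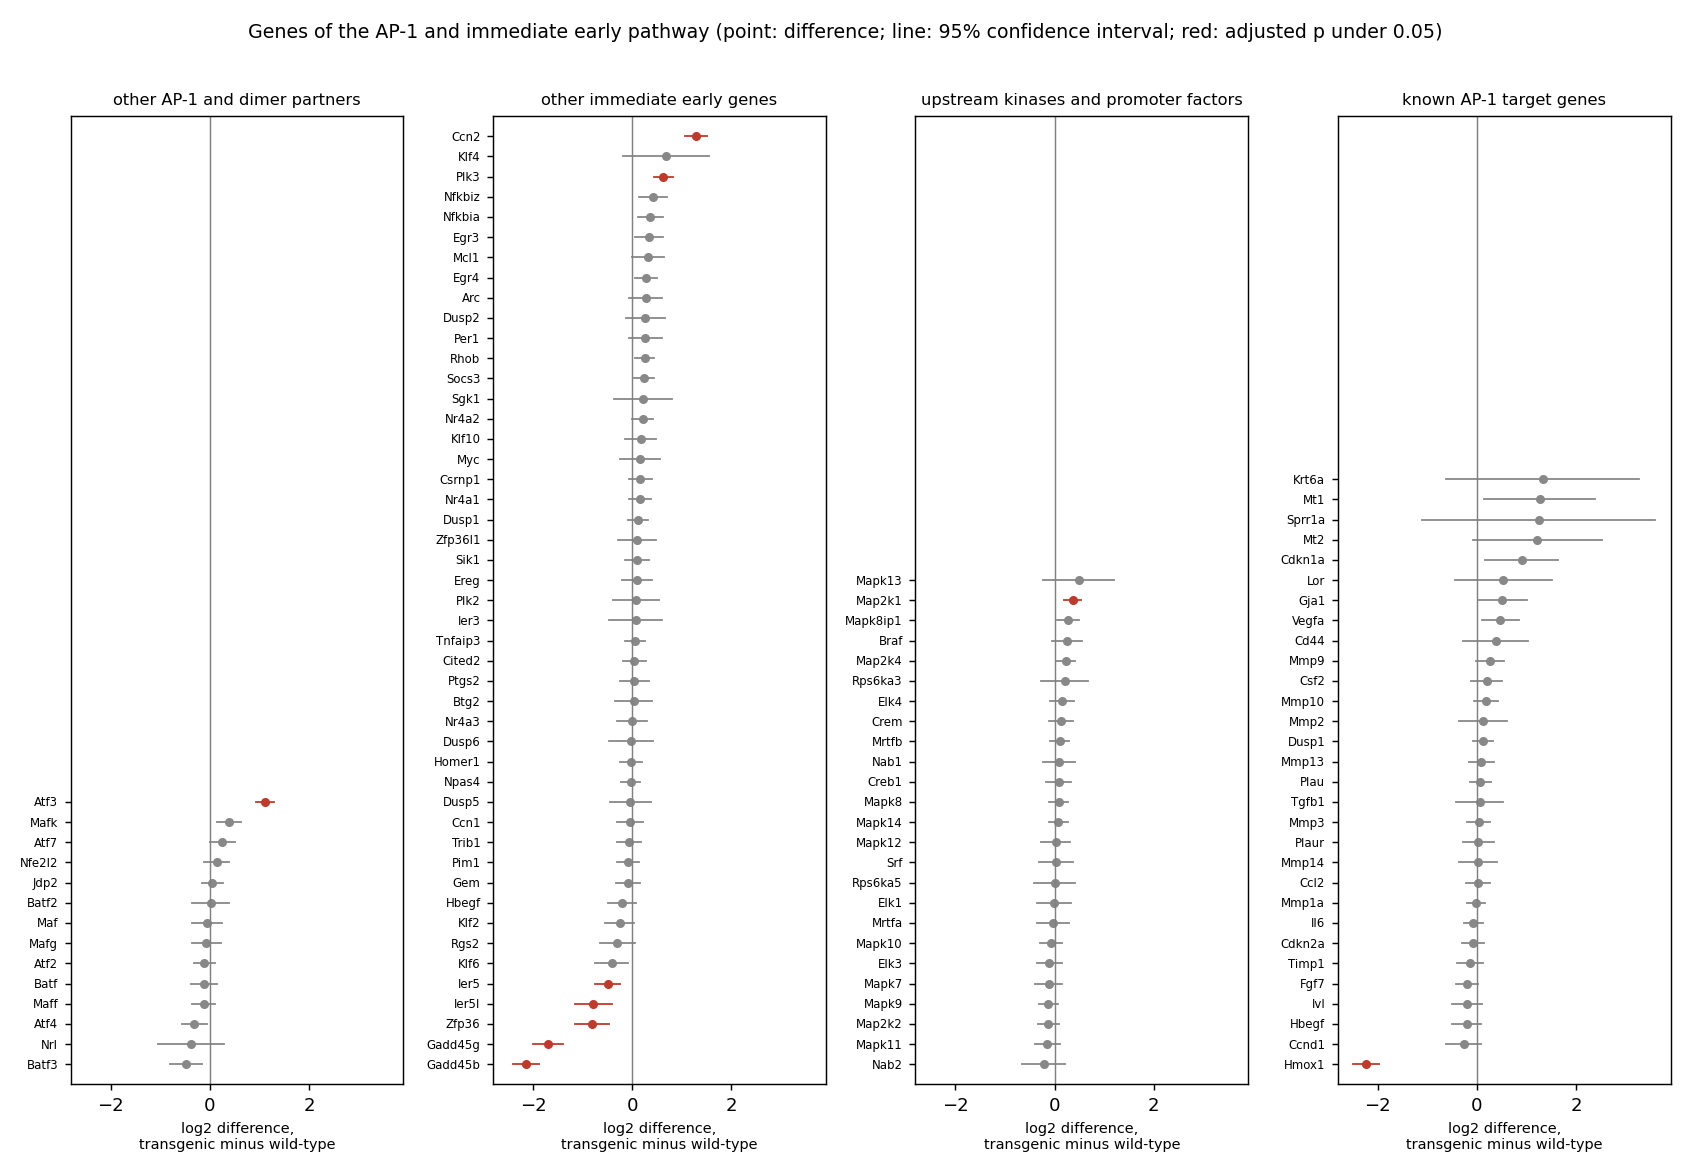
Log2 difference, transgenic minus wild-type, with its 95% confidence interval for every measured gene of the 4 pathway lists, sorted within each list, with genes past the adjusted p threshold in red. Atf3, Ccn2, Plk3 and Map2k1 are the calls above 0, and Hmox1, Gadd45b, Gadd45g, Zfp36, Ier5l and Ier5 are the calls below 0.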

How the data were processed

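RNA from whole lenses was measured on 3 transgenic and 3 wild-type Affymetrix arrays, grouped by title. Per the labels' protocols, a GenElute kit gave the total RNA, which in vitro transcription labelled. The values deposited by the authors are on a log2 scale, as read from their range of 2.68 to 14.8. The method behind them (summary, background, scaling) is not given in the sources used here. Depth does not apply to arrays, and their number limits the precision. Array medians were 5.29 to 5.37 as deposited.

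After 64 control probe sets were set aside, upper quartiles differed by 0.120, above the limit of 0.1 set for quantile normalization, which was applied in limma 3.58.1 (R 4.3.3). Symbols came from GEO's platform annotation, updated by gene identifier through RefSeq of GRCm38.p6 (99.4% of 34945 probe sets with 1 symbol). 932 probe sets with several symbols and 9160 with none were not named. No member lay among those with several. Genotypes were compared with lmFit and eBayes and Benjamini-Hochberg adjustment, once over the brightest probe set of each gene and once over every probe set. No filter on low values was used; 7 of the 10 genes had a mean at or above the median level. The fit was tested on simulated data with independent normal noise of the same variance on all 6 arrays for each gene. That setting does not cover an array set apart, such as T3. The members, lists and tests were chosen with earlier results of these data known. Named genes are all members, up to 8 called members of each pathway list with up to 2 uncalled, and the 5 profiles nearest to Fos. The 11 marker lists give counts, medians and levels. From these lists, called markers and markers with tied values are also named. Alternatives were 15: 2 other scalings, a filter on dim genes, 2 treatments of probe sets, 3 variance or weight models, a replicate block and 6 arrays left out. Promoters are RefSeq's. Replicate numbers were not used to pair the samples in the main fit.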

Additional observations from a re-analysis of the deposited data

How the results depend on the processing

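The count of members at an unadjusted p under 0.05, 5, ran from 1 (without moderation) to 5. The 15 alternatives left the count of called member genes at 0 in 13 cases and gave 1 in 2: averaged probe sets (1, Jun) and, among arrays left out (0 to 1), T1 (1, Fos). The single call among member probe sets became 0 on the values as deposited, after shifting to a common median and with a replicate block (adjusted p of the second Jun probe set 0.0864), and ran from 0 to 1 with arrays left out, where the 1 was Fos. Over all genes, 352 were higher and 475 lower; after shifting to a common median, which moved the median difference of all genes to -0.035 from 0.011, the split was 252 to 666. Without moderation of variances these were 45 and 79, with array weights 599 and 790, with the replicate block 69 and 154, and with 1 array left out, which also leaves fewer samples, 70 to 249 and 156 to 385. Replicate numbers were taken from the titles. Over genes, deviations of same-numbered arrays correlated at -0.052, 0.084 and 0.028. T2 and T3 correlated best with the wild-type array of their own number, and T1 with W3. The block also took the Map2k1 call (0 of its list higher) and that of Ier5.

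In the lists, the AP-1 partners had 0 higher with dim genes left out, where Atf3 was not tested. The immediate early list had 4 higher with array weights and 2 lower without moderation, and with arrays left out 2 to 2 higher and 2 to 4 lower. The upstream list had 0 higher as deposited, after shifting and with any array left out (0 to 0), and the target list had 0 to 1 higher with arrays left out.

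Signs turned, with no call on either side, for these (range with arrays left out, where given): Egr1 (-0.12, range to 0.73) and the dimmer Egr2 probe set (-0.094, range to 0.25) without T3, the dimmer Fosl1 probe set (0.026, range from -0.18) without W2 and Fosl2 (-0.064, range to 0.19) without W1. Ier2 (range -0.080 to 0.045) turned with array weights (0.00054), without T1 (0.045) and without W1 (0.031). Junb (range -0.13 to 0.19) turned with array weights (-0.037) and without T1 (-0.13), T3 (-0.036), W2 (-0.019) or W3 (-0.00097). Where no other reason is given, the cause was not tested. Fosb, Fosl1 and Egr2 lay under the median level, which limits their folds.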
